A study of Mus musculus with 36 samples.

Results

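The miR-183, miR-96 and miR-182 cluster is a group of 3 microRNA (miRNA) genes whose products were followed here as 4 mature mouse (mmu) sequences, mmu-miR-182-5p, mmu-miR-183-5p, mmu-miR-183-3p and mmu-miR-96-5p. They were taken by name, as 4 of the 1966 mature miRNAs in the count table, and not by a cut-off on any measured value. Earlier results of these data were known when they were chosen. Small RNA was sequenced from epididymal white adipose tissue (eWAT, the fat pad beside the testis and epididymis) and from liver of wild-type C57BL/6 male mice of the F1 generation, killed at 24 weeks of age. Each tissue held the diet groups HFLF, HF and LF, with 6 libraries in each group and 36 in all. The count columns carry the letters R, H and C, which were read as HFLF, HF and LF, although no label spells this out. All mice had eaten chow until 6 weeks of age and a set diet for the following 18 weeks. The diet tags of the groups are HFLFD, HFD and LFD, whereas the treatment text names LFD for every sample, so the labels leave it unclear whether a group name is the diet of the mouse or of its father. Nothing in the labels says that the replicates are separate mice, and the p-values therefore reflect only how these 36 libraries vary, which may be technical.

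A miRNA gene is transcribed into a hairpin, from which one or both arms (5p and 3p) are cut out and loaded into an Argonaute protein. The loaded strand finds target messages mainly through its seed, the bases next to its 5′ end. The miR-183 cluster is best known from sensory epithelia, where it is abundant in hair cells and photoreceptors, and changes in the miR-96 seed cause hearing loss in mice and humans. It is also found in many secretory and lining epithelia. In mouse liver the cluster is known as a target of SREBP-2, the transcription factor of cholesterol synthesis, and miR-182 and miR-96 repress Fbxw7 and Insig2, which act as brakes on that pathway. In tissue RNA a lower level from fewer cells of a type cannot be told apart from less RNA per cell.

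The mature sequences are shown because miR-182-5p and miR-183-5p differ little and have to be told apart by the aligner. They are RefSeq sequences on build GRCm38.p6, written 5′ to 3′ with the seed (bases 2 to 8) in capitals, and all 4 members matched by name. miR-1271-5p is added as the one miRNA outside the cluster that carries a member's seed among the 1679 mature names in the sequence table.
miR-182-5p: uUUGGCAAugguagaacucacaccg
miR-96-5p: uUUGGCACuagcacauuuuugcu
miR-183-5p: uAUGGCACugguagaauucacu
miR-183-3p: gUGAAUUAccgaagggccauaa
miR-1271-5p: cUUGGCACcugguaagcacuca

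Aligned from the first base without gaps, miR-182-5p and miR-183-5p had the same base at 18 of 22 positions, although only 5 of 7 seed bases were the same. miR-96-5p shared 6 of 7 seed bases with each of them, but 12 of 23 positions in all with miR-182-5p and 13 of 22 with miR-183-5p. The 3 guide strands therefore have closely related seeds, none of which is identical to another. miR-183-3p, the opposite arm of the miR-183 hairpin, has an unrelated seed. miR-1271-5p, which has the seed of miR-96-5p, comes from chr13:54578152-54578173 on the plus strand and had 3 reads in all 36 libraries, so miR-96-5p was the measured carrier of that seed. The hairpin of miR-183 is shown because its 2 arms gave different results in 1 library below, with the 5p arm and then the 3p arm in capitals.
Mir183: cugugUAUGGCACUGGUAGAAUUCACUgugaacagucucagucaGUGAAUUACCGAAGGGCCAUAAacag

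The 3 genes lie on the minus strand of GRCm38 at chr6:30165918-30169737, in a span of 3820 bases that no other annotated gene overlaps. In the direction of transcription Mir183 comes first, Mir96 follows after 116 bases, and Mir182 after a further 3453 bases. The nearest annotated gene is the long non-coding RNA gene Rncr4 on the plus strand at 3155 bases. The nearest protein-coding genes on either side are Nrf1 at 12459 bases and Ube2h at 41551 bases.

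Levels are given as CPM, the reads of a miRNA scaled to a common total of reads counted for mature miRNAs. That total was 7866583 to 18832842 per library. The liver marker miR-122-5p took 45.6% to 57.0% of the counts in liver and 0.0137% to 0.309% in eWAT, and miR-143-3p, a mesenchymal miRNA, took 0.771% to 1.70% in liver and 12.8% to 22.8% in eWAT. Libraries stood apart in both tissues. The libraries labelled eWAT LF 1 and LF 4 had a summed level of the epithelial miR-200 family of 15801 and 20633 CPM, against 61.0 to 287 CPM in the other 16 eWAT libraries. The libraries labelled liver LF 4 and HF 6 had counts for only 316 and 368 miRNAs, against 540 to 633 in the other 16 liver libraries, and these are the 2 liver libraries not in the authors' deposited log2 table. Results that rest on these libraries are given with and without them.

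mmu-miR-182-5p was the most abundant member in 35 of 36 libraries, and its level in eWAT was low in most of them. In eWAT HFLF replicates 1 to 6 it had 12.4, 23.6, 16.9, 20.9, 19.3 and 16.5 CPM, a mean of 18.3 ± 3.89 CPM (SD, n = 6). In eWAT HF it had 47.5, 16.3, 25.8, 15.99, 37.2 and 24.6 CPM, a mean of 27.9 ± 12.3 CPM. In eWAT LF it had 370, 47.0, 47.8, 2160, 16.8 and 30.8 CPM. The 2 high values are those of LF 1 and LF 4, and the other 4 LF libraries had 16.8 to 47.8 CPM, close to the 15.99 to 47.5 CPM of the HF group. The 95% Wilson interval of the LF 4 value, which covers counting error only, ran from 2131 to 2190 CPM on 20782 reads.

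In liver miR-182-5p was higher than in every eWAT library except LF 1 and LF 4, and had no extreme library on the low side. eWAT LF 4, at 2160 CPM, was above all liver libraries, and eWAT LF 1, at 370 CPM, lay within their range. With both included the eWAT LF mean was 445 CPM, above that of liver LF. The 6 liver HFLF libraries had 135, 289, 358, 269, 274 and 656 CPM, a mean of 330 ± 175 CPM. The liver HF libraries had 342, 293, 257, 222, 379 and 202 CPM, a mean of 282 ± 69.1 CPM, and the liver LF libraries 158, 178, 256, 335, 446 and 217 CPM, a mean of 265 ± 109 CPM. The 3 diet groups overlapped, and liver HFLF 6 was the highest liver library.

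mmu-miR-183-5p followed miR-182-5p at a lower level. In eWAT it had 5.46, 10.9, 8.46, 21.1, 9.04 and 14.5 CPM in HFLF, 29.0, 10.4, 7.54, 5.07, 11.7 and 21.1 CPM in HF, and 202, 16.2, 28.7, 1037, 14.4 and 12.9 CPM in LF. LF 1 and LF 4 were again the only high libraries. In liver it had 83.1, 147, 149, 105, 103 and 279 CPM in HFLF, 159, 158, 95.3, 90.4, 163 and 1.91 CPM in HF, and 90.3, 73.0, 125, 13.4, 207 and 97.9 CPM in LF. The diet groups overlapped, and the values of liver HF 6 and LF 4 lay far below those of the other 16 liver libraries, which started at 73.0 CPM.

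mmu-miR-96-5p, the member with the known role in hearing, was rare in both tissues. In eWAT it reached 0.621 CPM in HFLF, 0.993 CPM in HF and 1.74 CPM in the 4 LF libraries other than LF 1 and LF 4, which had 5.24 and 65.3 CPM. It was at 0 in 5 of 18 eWAT libraries, in which 3 reads would have been 0.215 to 0.278 CPM. In liver it averaged 7.70 ± 5.82 CPM in HFLF, 7.26 ± 4.41 CPM in HF and 3.31 ± 3.05 CPM in LF (SD, n = 6 each). The only liver libraries at 0 were HF 6 and LF 4, where 3 reads would have been 0.159 and 0.353 CPM.

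mmu-miR-183-3p is the arm of miR-183 that is usually degraded. It was at 0 in 13 of 18 eWAT libraries and in 3 of 18 liver libraries. Its highest eWAT values were 12.2 CPM in LF 4 and 2.30 CPM in LF 1, and every other eWAT library had at most 1.01 CPM. In liver it ran from 0.262 to 3.14 CPM in HFLF, from 0 to 3.37 CPM in HF and from 0 to 8.003 CPM in LF, where the highest value was that of LF 4. The 2 other passenger arms, miR-182-3p and miR-96-3p, were at 0 in all eWAT libraries except LF 1 and LF 4.

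**Figure D1:**
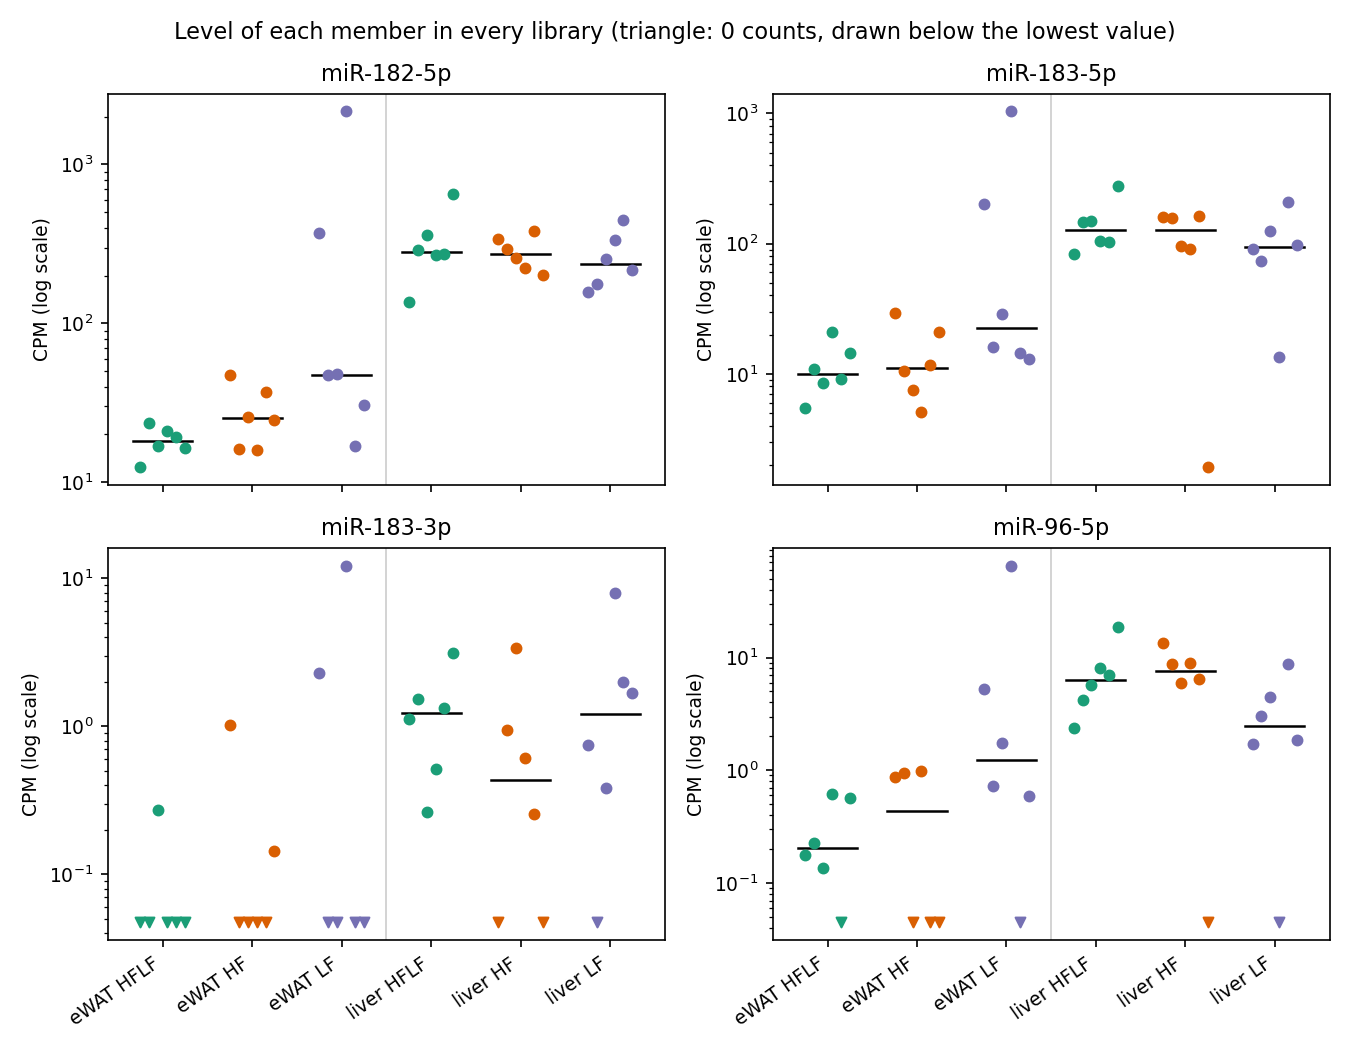
CPM of each of the 4 members (log axis) in every library, by tissue and diet group, with replicates 1 to 6 from left to right and a line at each group's median where it is above 0. Of the eWAT libraries, LF 1 and LF 4 stand above the others for every member, with miR-182-5p at 370 and 2160 CPM, and in liver miR-183-5p of HF 6 and LF 4 lies at 1.91 and 13.4 CPM.

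The proportions between members were similar across the tissues. For every 100 miR-182-5p reads the 18 eWAT libraries held 29.2 to 101 miR-183-5p reads with a median of 49.0, and 16 liver libraries held 37.1 to 61.3 with a median of 44.0. In eWAT LF 1 and LF 4 the ratios were 54.6 and 48.0, inside the range of the other 16 eWAT libraries. The ratio of miR-183-5p to miR-182-5p therefore did not set these libraries apart, although that range is wide. miR-96-5p stood at 0 to 6.21 reads per 100 of miR-182-5p in eWAT and at 0.856 to 4.05 in the same 16 liver libraries.

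Liver HF 6 and LF 4 broke these proportions. Their miR-182-5p, at 202 and 335 CPM, was within the range of the other liver libraries, but they held only 0.947 and 4.00 miR-183-5p reads per 100 of miR-182-5p. As a share of both miRNAs, miR-183-5p made up 0.938% in HF 6 (95% Wilson interval 0.679% to 1.30%) and 3.85% in LF 4 (3.21% to 4.60%), against at least 27.1% in the other liver libraries. In LF 4 there were 59.6 reads of miR-183-3p per 100 of miR-183-5p, whereas no other library exceeded 3.53. In HF 6 miR-96-3p, the opposite arm of miR-96, had 58 reads (3.08 CPM), although miR-96-5p had none. The next highest liver library had 0.435 CPM of miR-96-3p. These libraries list fewer miRNAs than the others, and the part of that difference in these ratios was not tested.

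**Figure D2:**
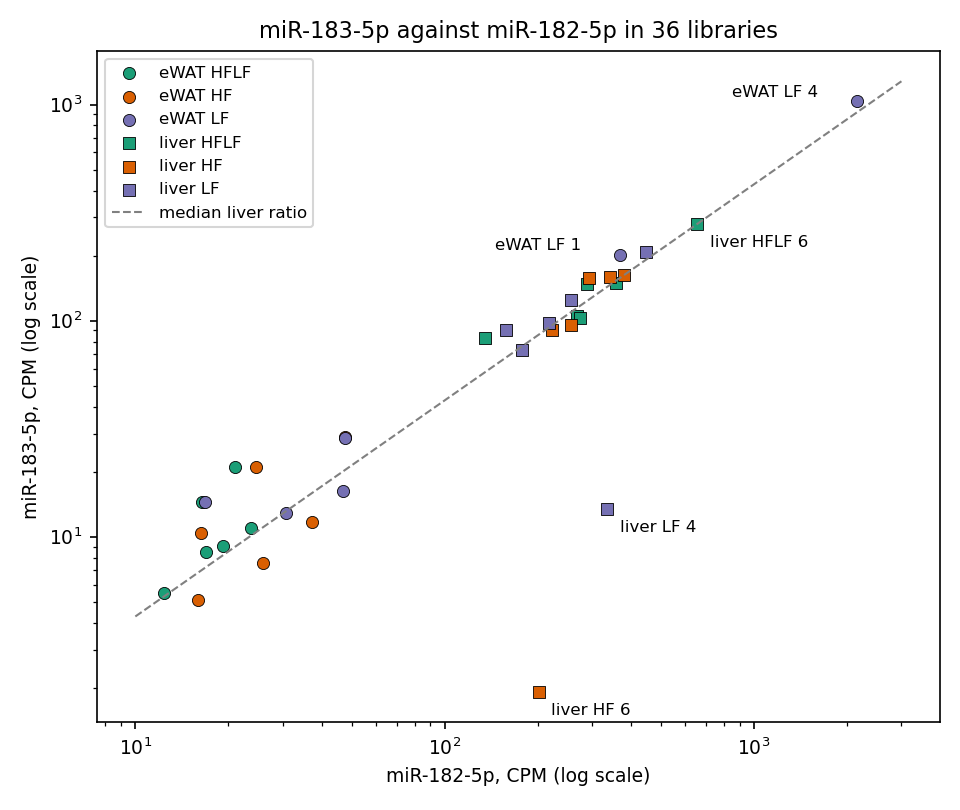
miR-183-5p against miR-182-5p in CPM (both axes logarithmic) for all 36 libraries, with circles for eWAT and squares for liver and a dashed line at the median liver ratio of 42.7 to 100. The points of both tissues follow the line, including eWAT LF 1 and LF 4, and liver LF 4 and HF 6 lie far below it.

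Across the libraries of a tissue miR-182-5p and miR-183-5p, the most abundant members, moved together, and pairs with a rarer member were less alike. As a description, Spearman's rho between miR-182-5p and miR-183-5p was 0.75 over 18 eWAT libraries and 0.64 over 16 without LF 1 and LF 4. In liver it was 0.81 over 18 libraries and 0.95 over 16 without LF 4 and HF 6. Between miR-182-5p and miR-96-5p it was 0.37 and 0.10 in eWAT and 0.59 and 0.69 in liver, over the same libraries. Between miR-183-5p and miR-183-3p, the arms of the same hairpin, it was 0.56 and 0.30 in eWAT and 0.06 and 0.09 in liver. The part of low counts in the weaker pairs was not tested. Both values of a pair come from the same library and share its depth, and 5 of the 18 eWAT values of miR-96-5p are 0.

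The first question of the design is whether the diet groups differed in eWAT. No member passed the test there. With edgeR's quasi-likelihood F test and Benjamini-Hochberg adjustment over 638 miRNAs, 0 of 3 tested members were called in HFLF against LF, where 0.00% of all miRNAs were called. miR-183-3p was removed by the filter on low counts in all 3 eWAT comparisons. The fitted log2 differences, HFLF minus LF, were large but uncertain. They were −4.61 ± 1.10 for miR-182-5p (SE, adjusted p = 0.0873), −4.22 ± 1.12 for miR-183-5p (adjusted p = 0.0973) and −5.31 ± 1.59 for miR-96-5p (adjusted p = 0.106), all by edgeR. The median over all 638 miRNAs was −0.04. All 3 members, among 98 miRNAs, had an unadjusted p under 0.05, limma's voom called none, and DESeq2 called 31 miRNAs with all 3 members among them.

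HF against LF in eWAT gave the same picture. Of the 3 members 0 were called, as were 0.00% of the 638 miRNAs. The log2 differences, HF minus LF, were −4.03 ± 1.07 for miR-182-5p, −3.97 ± 1.11 for miR-183-5p and −4.75 ± 1.55 for miR-96-5p, with edgeR adjusted p-values of 0.193, 0.200 and 0.200. The unadjusted p was under 0.05 for all 3 members and 49 miRNAs, limma's voom called 0 miRNAs, and DESeq2 called 16, including the 3 members. Both comparisons use the same LF libraries, so they are not independent.

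These differences rested on the libraries labelled LF 1 and LF 4. Without them the HFLF minus LF differences were −0.91 ± 0.33 for miR-182-5p (edgeR adjusted p = 0.682), −0.57 ± 0.48 for miR-183-5p and −1.30 ± 1.38 for miR-96-5p. The HF minus LF differences became −0.31 ± 0.33, −0.31 ± 0.48 and −0.72 ± 1.38 for the same members, and edgeR called 0 of 673 miRNAs in both, with 46 and 13 at an unadjusted p under 0.05. Leaving out LF 4 alone brought the miR-182-5p difference to −2.54 for HFLF minus LF and to −1.96 for HF minus LF. These 2 libraries were singled out because epithelial miRNAs are high in them, the cluster included, so the smaller spread without them is no independent evidence.

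HFLF and HF, the groups without such libraries, were close in eWAT. The log2 differences, HFLF minus HF, were −0.58 ± 0.96 for miR-182-5p, −0.25 ± 0.99 for miR-183-5p and −0.55 ± 1.51 for miR-96-5p (edgeR adjusted p = 0.997 for each). Of the 3 members 0 were called, against 0.00% of all 638 miRNAs. At an unadjusted p under 0.05 there were 21 miRNAs and no member, and DESeq2 and limma's voom called none. These standard errors come from the fit of all eWAT libraries, LF 1 and LF 4 included. In that fit they leave room for differences of more than 1 log2 unit in either direction. With LF 1 and LF 4 left out, edgeR also called 0 of 673 miRNAs in HFLF minus HF. The standard errors against LF were smaller in that setting, as given above. The range it leaves for the members in HFLF minus HF is not given here.

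In eWAT the members were high together with miRNAs of other epithelial and gland lists. Of the 5 members of the miR-200 family, which hold down the ZEB repressors in epithelial cells, 0 were called in HFLF against LF, and their median log2 difference was −5.54. For the glandular and endocrine list (5 tested) the median was −5.09, for the list of ciliated epithelium and spermatids (5 tested of 6) −4.24, and for the X-linked germ cell cluster (10 tested of 11) −4.50. The lymphocyte, erythroid, hepatocyte and adipose lists had medians of −0.33, 0.20, −0.48 and −0.11, and none of their members was called. Without LF 1 and LF 4 the medians became −0.59 for the miR-200 family, −0.31 for the glandular and endocrine list and −0.49 for the ciliated list, whereas that of the X-linked germ cell cluster was still −3.52. The germ cell cluster also had a median of −3.55 in HFLF minus HF, with 0 of 10 tested members called by edgeR. For the other 4 lists the medians without these libraries were −0.44, −0.10, 0.19 and 0.17. The summed miR-200 family ran from 61.0 to 166 CPM in eWAT HFLF, from 87.5 to 162 CPM in HF and from 104 to 20633 CPM in LF.

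The libraries labelled eWAT LF 1 and LF 4 were not alike in what else was high with the cluster. LF 4 had 3275 CPM of the 4 members in sum and LF 1 had 580 CPM, whereas their miR-200 family sums were 20633 and 15801 CPM. The cluster thus stood at 15.9 CPM per 100 CPM of the miR-200 family in LF 4 and at 3.67 in LF 1, against 15.4 to 60.1 in the other 16 eWAT libraries. LF 4 had 2851 CPM of miR-205-5p, a miRNA of basal and stratified epithelia, and 742 CPM of the X-linked germ cell cluster. LF 1 had 73.7 and 18.2 CPM of these. LF 1 in turn had 4406 CPM of the ciliated list and 3298 CPM of miR-375-3p, an endocrine and glandular miRNA, where LF 4 had 283 and 152 CPM. In the other 16 eWAT libraries miR-205-5p reached at most 16.4 CPM, miR-375-3p 48.1 CPM and the ciliated list 220 CPM. The X-linked germ cell cluster was spread differently, since it ran from 0.534 to 325 CPM in those 16 libraries, and LF 1 lay inside that range. Single miRNAs of lists with small medians also set these libraries apart. The liver and intestinal miRNAs miR-192-5p and miR-194-5p had 3135 and 1819 CPM in LF 1, against at most 242 and 197 CPM in the other 16 libraries, and were inside that range in LF 4. All 5 erythroid miRNAs were below the other 16 libraries in both, with miR-451a at 642 CPM in LF 1 and 618 CPM in LF 4, against at least 916 CPM. Of the adipose and mesenchymal list, miR-199a-3p and miR-214-3p were above the other 16 in both. miR-199a-3p had 10968 CPM in LF 1 and 6918 CPM in LF 4, against at most 6613 CPM. In LF 4 miR-10b-5p and miR-196a-5p were also above and miR-145a-5p was below, whereas miR-143-3p was inside the range in both. In LF 1 miR-150-5p (753 CPM, against at least 1231) and miR-122-5p (137 CPM, against at least 553) were below. The 6 ciliated markers included 1, miR-449c-5p, at 0 in LF 4, and of the 11 germ cell markers miR-883b-3p was at 0 in both libraries. The glandular and endocrine list, which holds miR-205-5p and miR-375-3p, also has miR-7a-5p, which did not stand apart. It had 411 CPM in LF 1 and 544 CPM in LF 4, inside the 303 to 551 CPM of the other 16 libraries. miR-204-5p of that list was above the other 16 in both, at 726 and 533 CPM against at most 177 CPM. The part of these other cell types in the eWAT differences was not tested.

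**Figure D3:**
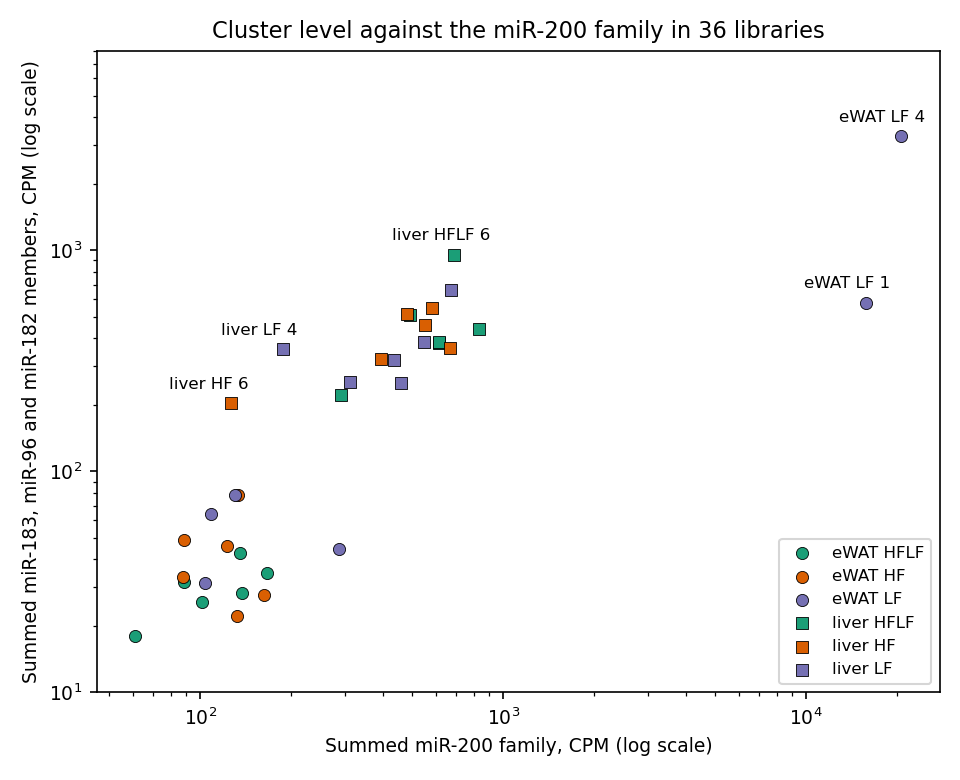
Summed CPM of the 4 members against summed CPM of the 5 miR-200 family members (both axes logarithmic) in 36 libraries, with circles for eWAT and squares for liver. eWAT LF 1 and LF 4 lie at the far right at 15801 and 20633 CPM of the miR-200 family, the other 16 eWAT libraries lie at the lower left, and the liver libraries hold more of the cluster for a given level of the miR-200 family.

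In liver no member passed the test in any diet comparison, and with all libraries the standard errors were smaller than in eWAT. Without eWAT LF 1 and LF 4 the eWAT standard errors against LF were close to the liver ones for miR-182-5p and miR-183-5p. For miR-96-5p they stayed larger. For miR-182-5p the log2 difference was 0.08 ± 0.30 for HFLF minus LF, −0.02 ± 0.30 for HF minus LF and 0.10 ± 0.30 for HFLF minus HF. For miR-183-5p the differences were 0.40 ± 0.57, 0.09 ± 0.57 and 0.31 ± 0.57 in the same order. The smallest edgeR adjusted p among the 4 members was 0.989. Of the 4 members 0 were called in each of the 3 comparisons, where 0.00% of 478 miRNAs were called. No member had an unadjusted p under 0.05 in edgeR, and DESeq2 and limma's voom called 0 miRNAs. Over all miRNAs, edgeR gave 14 with an unadjusted p under 0.05 for HFLF against LF, 16 for HF against LF and 5 for HFLF against HF.

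miR-96-5p had the largest liver difference of the guide strands. Its log2 difference was 1.11 ± 0.84 for HFLF minus LF and 1.11 ± 0.84 for HF minus LF, with unadjusted edgeR p-values of 0.205 and 0.204. Without liver LF 4 and HF 6, both at 0 for this miRNA, the differences were 0.86 ± 0.46 and 1.12 ± 0.48, with unadjusted edgeR p-values of 0.0754 and 0.0293 and adjusted p-values of 0.686 and 0.727. The groups overlapped, since liver LF 5 had 8.75 CPM, above the medians of the HFLF and HF groups. For miR-183-3p the LF 4 library set the estimate. Its HF minus LF difference was −1.73 ± 1.17 with all libraries and 0.00049 ± 1.85 without LF 4 and HF 6.

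The second question is how the tissues differ. In the HFLF group all 4 members were lower in eWAT than in liver. The log2 differences, eWAT minus liver, were −5.33 ± 0.84 for miR-182-5p, −4.76 ± 0.97 for miR-183-5p, −5.80 ± 1.38 for miR-96-5p and −5.70 ± 1.74 for miR-183-3p. The edgeR adjusted p-values were 3.16e-06, 0.000138, 0.000689 and 0.0067. Each of the 4 calls was also made without any 1 of the 12 libraries. miR-183-3p was at 0 in 5 of 6 eWAT HFLF libraries, and its size depends on HFLF 3, without which the whole group is at 0. Thus 4 of 4 members were called lower, where 48.6% of 681 miRNAs were called and 19.2% were called lower. The CPM values of eWAT and liver did not overlap for miR-182-5p, miR-183-5p and miR-96-5p, which was so, on the lower side, for 6.17% of all miRNAs. For miR-183-3p the one eWAT library above 0, with 0.273 CPM, was above the lowest liver library, with 0.262 CPM.

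In the HF group 3 of 4 members were lower in eWAT, where 49.6% of the 681 miRNAs were called and 17.6% were called lower. The log2 differences, eWAT minus liver, were −4.48 ± 0.81 for miR-182-5p (edgeR adjusted p = 2.42e-05), −4.12 ± 0.94 for miR-183-5p (0.00052) and −5.13 ± 1.34 for miR-96-5p (0.00173). miR-183-3p had a difference of −3.08 ± 1.53 and did not pass (edgeR adjusted p = 0.0919). It passed without liver LF 4 and HF 6, with −3.53 ± 1.51 and an adjusted p of 0.0479. It also passed without eWAT HF 1 alone, at −5.39 (edgeR adjusted p = 0.0156), and was at −1.97 without liver HF 3, so single libraries moved it in either direction. miR-182-5p did not overlap between the tissues, with at most 47.5 CPM in eWAT HF and at least 202 CPM in liver HF, a pattern found on the lower side for 4.26% of all miRNAs. miR-183-5p and miR-96-5p overlapped only through liver HF 6.

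In the LF group 0 of 4 members were called, where 47.4% of the 681 miRNAs were. The log2 differences, eWAT minus liver, were −0.53 ± 0.70 for miR-182-5p, −0.14 ± 0.83 for miR-183-5p, 0.64 ± 1.12 for miR-96-5p and −1.16 ± 1.40 for miR-183-3p (smallest edgeR adjusted p = 0.511). The count at an unadjusted p under 0.05 was 0 members. DESeq2 called 373 miRNAs with 0 members among them, whereas limma's voom called 336 with 2 members among them. Without eWAT LF 1 and LF 4 all 4 were called lower in eWAT. In that setting 317 of 746 miRNAs (42.5%) were called, 116 of them lower. The differences were then −4.20 ± 0.44 for miR-182-5p, −3.76 ± 0.73 for miR-183-5p and −3.34 ± 1.22 for miR-96-5p, with edgeR adjusted p-values of 5.45e-10, 7.28e-05 and 0.0254. miR-183-3p was at 0 in all 4 eWAT LF libraries left in that fit, so its call rests on zeros and its fitted size is not given. LF 1 and LF 4 have the highest eWAT levels of the cluster, so leaving them out lowers the eWAT side and its spread. The calls and p-values without them are therefore no independent evidence.

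The size of a tissue difference depended on the scaling. Under TMM scaling the median of all 681 miRNAs was 0.27 in HFLF, 0.48 in HF and 0.60 in LF (log2, eWAT minus liver). With library totals in its place these medians shifted by 1.11, 1.18 and 1.28. In HFLF the calls split into 200 higher and 131 lower under TMM and into 368 higher and 58 lower under library totals. In HF they split into 218 and 120 under TMM and into 389 and 53 under library totals, and in LF into 214 and 109 and into 422 and 40. The miR-182-5p difference in HFLF was −4.18 under library totals and that in HF −3.34, with edgeR adjusted p-values of 2.71e-05 and 0.000252. In LF the direction turned, with 0.75 under library totals and −0.53 under TMM for miR-182-5p and 1.11 and −0.14 for miR-183-5p, and neither was called under either scaling. Relative to the median of all miRNAs, miR-182-5p was −5.61 and −5.56 in HFLF and −4.96 and −5.00 in HF under TMM and library totals. In LF it was −1.13 and −1.12, and miR-183-5p was −0.74 and −0.76, so neither turned relative to that median.

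**Figure D4:**
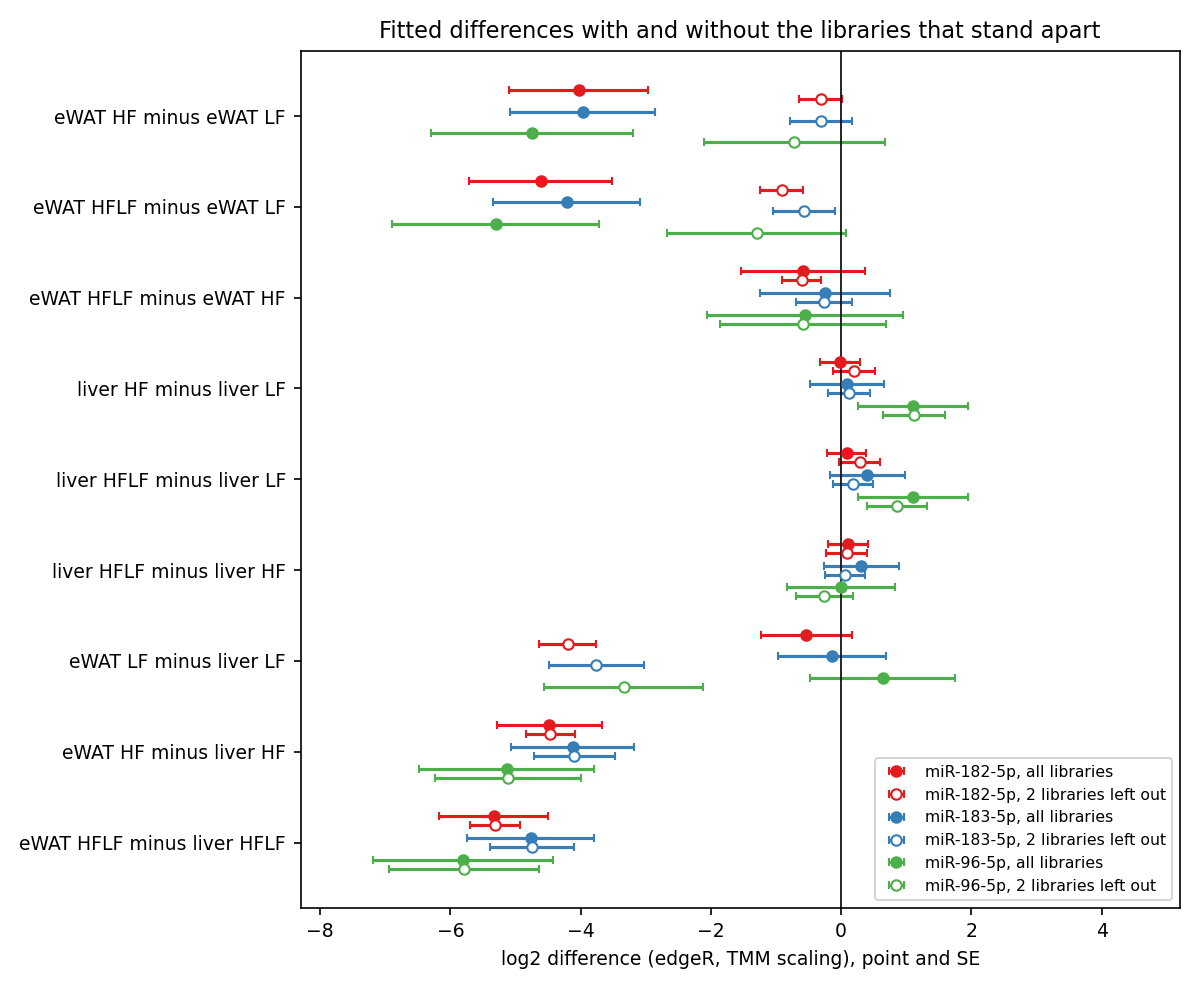
Fitted log2 differences (points) with their SE (bars) for miR-182-5p, miR-183-5p and miR-96-5p in 9 comparisons, with all libraries (filled) and with 2 libraries left out (open; eWAT LF 1 and LF 4 for comparisons with eWAT, liver LF 4 and HF 6 for comparisons within liver). Leaving libraries out moves the eWAT comparisons with LF toward 0 and the LF difference between tissues away from 0, where miR-182-5p stands at −0.53 with all libraries and at −4.20 without eWAT LF 1 and LF 4.

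The difference between tissues was also tested as a difference in the effect of a diet group. For HFLF minus LF, eWAT minus liver, 3 of 4 members were called lower, where 1.91% of 681 miRNAs were called and 1.62% were called lower. The log2 differences of effects were −4.80 ± 1.04 for miR-182-5p, −4.62 ± 1.23 for miR-183-5p and −6.44 ± 1.73 for miR-96-5p (edgeR adjusted p = 0.0082, 0.0398 and 0.0398). For HF minus LF 1 of 4 members was called, miR-182-5p at −3.95 ± 1.02 (edgeR adjusted p = 0.0362), where 2.50% were called and 1.17% were called lower. These calls varied with the tool, since limma's voom called 0 members and 0 miRNAs for both effects (54 miRNAs for HFLF and 52 for HF at an unadjusted p under 0.05), and DESeq2 called 3 members for each. With same-numbered libraries of a diet group treated as pairs across the tissues (replicate block), edgeR called 0 members and 0 miRNAs for both effects. No label says whether such libraries share a mouse. The calls also varied with the libraries. Over 24 fits that left out 1 library each, the HFLF effect was called in 23 for miR-182-5p and in 9 each for miR-183-5p and miR-96-5p, and the HF effect in 12 for miR-182-5p. All 5 miR-200 family members were called lower in both by edgeR with all libraries. Without eWAT LF 1 and LF 4 none of the 4 members was called in either, nor was any of the 746 miRNAs by edgeR (62 and 78 at an unadjusted p under 0.05), and miR-182-5p stood at −1.11 ± 0.48 and −0.26 ± 0.49. Without eWAT LF 4 alone 0 of 4 members were called in either, and the edgeR adjusted p of miR-182-5p was 0.0584 for the HFLF effect and 0.173 for the HF effect.

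The miRNAs whose levels followed the summed cluster most closely differed between the tissues. Among 514 miRNAs with a mean of at least 1 CPM over all 36 libraries, the highest Spearman correlations over the 18 eWAT libraries were with miR-133a-3p (0.76), a striated muscle miRNA, miR-200c-3p (0.75), miR-1a-3p (0.73), also of striated muscle, miR-1247-5p (0.73) and miR-7240-5p (0.66), which averaged only 0.618 CPM in eWAT. Over the 16 eWAT libraries without LF 1 and LF 4 these values were 0.67, 0.64, 0.62, 0.62 and 0.55. Over the 18 liver libraries they were miR-145a-3p (0.76), miR-3963 (0.72), miR-200b-3p (0.71), miR-199b-5p (0.69) and miR-100-5p (0.66). Without LF 4 and HF 6 the liver values were 0.70, 0.65, 0.64, 0.64 and 0.59. These are descriptions over libraries that share their depth and scaling, and they carry no test.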

How the data were processed

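Small RNA libraries had been made from total RNA with the NEXTFLEX Small RNA-seq v3 kit, per the labels' protocols. The submitters' processing notes name cutadapt, Bowtie and the build GRCm38.p6. Their versions, mismatch settings and the treatment of reads that match several miRNAs are not stated in the labels or file headers. Deposited by the authors were raw counts per mature miRNA and precursor, CPM columns beside them, and log2 CPM values per tissue. The authors' deposited log2 values hold miR-182-5p and miR-183-5p for liver and no member for eWAT. Neither the deposited CPM nor the log2 values were used for a result. The letters L and W of the count columns were read as liver and eWAT, and the letters H for HF, C for LF and R for HFLF, a reading that rests on the initials and that no label spells out.

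For each mature name the line with the highest total was used, and CPM was computed over the sum of those lines. The test was that of edgeR 4.0.16 under R 4.3.3 (TMM factors, filterByExpr with a minimum count of 10 and total of 15, robust quasi-likelihood F test, Benjamini-Hochberg adjustment over all miRNAs tested, threshold 0.05). Each tissue was fitted alone for diets and all 36 libraries together for tissues and interactions. limma 3.58.1 (voom) and DESeq2 1.42.0 were alternatives, as were other scalings, no filter, summed lines, libraries left out and a replicate block. Apart from that block the fits treated the libraries as unpaired, and no label says whether same-numbered libraries share a mouse. In 11 of 54 same-numbered pairs, within or between tissues, the deviations from the group means correlated above 0.1. A weak correlation between different tissues cannot show that they come from different mice. Replicates differed by more than sampling noise (lowest chi-square per degree of freedom 61.8). Wilson intervals (95%) and floors (3 counts) cover counting error only, since PCR copies of a molecule are not independent.

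The members, the marker lists and the libraries left out were chosen with earlier results of these data known. Named were the 4 members, the other arms of the cluster, miRNAs sharing a member's seed, the 8 marker lists, and the 5 miRNAs per tissue with the highest Spearman correlation with the summed members. Correlations of log values used log2(CPM + 1) and are not printed.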

Additional observations from a re-analysis of the deposited data

Results flagged for a closer look

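Groups of 6 libraries were combined with measures (each member, their sum and the 3 ratios) in 48 ways. In 18 of these a library was set far apart from the other 5. For normally distributed values such a gap arises in about 1 in 20 groups. That rate does not carry over to these untransformed CPM values and ratios, since some groups are mostly at 0. A group with a single value above 0 always shows such a gap. Measures of the same library are not independent, and 8 of the 18 belong to eWAT LF 4 or liver LF 4. The library labelled eWAT LF 4 was far above its group for miR-182-5p (2160 CPM), miR-183-5p (1037 CPM), miR-183-3p (12.2 CPM), miR-96-5p (65.3 CPM) and the sum of the members (3275 CPM).

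In liver HFLF 6 the gap was found for miR-183-5p (279 CPM) and miR-96-5p (18.8 CPM), both at the top of their group, and the summed members of liver LF 5 (664 CPM) were the top of theirs. Low ratios of miR-183-5p to miR-182-5p set apart liver HF 6 (0.947 per 100) and liver LF 4 (4.00 per 100). The ratio of miR-183-3p to miR-183-5p set apart liver LF 4 (59.6 per 100), where miR-183-3p was at 8.003 CPM, and liver HF 3 (3.53 per 100), where it was at 3.37 CPM. In eWAT the same arm was high against groups mostly at 0, with 0.273 CPM in HFLF 3 (3.23 per 100 miR-183-5p) and 1.01 CPM in HF 1 (3.49 per 100).

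The effect of a diet group differed between the tissues, by the interaction test of edgeR, for miR-182-5p in HF (log2 difference of effects −3.95, eWAT minus liver) and in HFLF (−4.80), and in HFLF also for miR-183-5p (−4.62) and miR-96-5p (−6.44). None of these calls was made without eWAT LF 1 and LF 4.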

How the results depend on the processing

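The lower levels of miR-182-5p, miR-183-5p and miR-96-5p in eWAT than in liver kept their direction and their call in the HF and HFLF groups under every alternative run. The cluster cannot be measured well in eWAT for miR-183-3p and miR-96-5p, since most libraries hold under 20 reads of either. Where a value below differs from that in the report, the cause was not tested unless it follows from fewer libraries.

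The diet calls in eWAT depended on the tool. With DESeq2, 16 miRNAs and 3 members were called for HF minus LF and 31 miRNAs and 3 members for HFLF minus LF, against 0 in each with edgeR. edgeR without its robust option called 14 miRNAs and 2 members for HFLF minus LF. For the difference of the HF effect between tissues (17 miRNAs and 1 member in the report), DESeq2 called 29 and 3, limma's voom 0 and 0, and edgeR with no filter 6 and 0. Without liver LF 4 and HF 6 it was 2 members. For the HFLF effect (13 and 3) DESeq2 called 21 miRNAs, limma's voom 0 and 0, and edgeR with no filter 1 member. Without eWAT LF 1 and LF 4 the counts were 0 and 0 for both effects. Without all 4 libraries, an alternative chosen after seeing the data, they were 1 and 0 for HF and 0 and 0 for HFLF. For eWAT LF minus liver LF (323 miRNAs and 0 members), limma's voom called 336 miRNAs and 2 members. Leaving out eWAT LF 1 and LF 4 gave 317 miRNAs and 4 members, and leaving out all 4 libraries gave 364 and 4. Both settings leave out the highest eWAT levels of the cluster.

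With the replicate number as a block (replicate block), 0 miRNAs and 0 members were called for both differences of effects, and 1 member for eWAT LF minus liver LF. The miR-96-5p difference there was −2.16, and that of miR-182-5p for liver HF minus LF 0.072. The block moved no other count of calls by more than 1.5 times. No label says whether same-numbered libraries share a mouse. In 11 of 54 comparisons a library correlated best with the library of its own number in the other group. These pairs include those between diet groups, and their correlations cannot settle whether the tissues are paired.

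Leaving out 1 library at a time moved the members called to between 0 and 2 for eWAT HFLF minus LF and for eWAT LF minus liver LF, and to between 0 and 3 for both differences of effects. The miRNAs called ranged from 0 to 17 for eWAT HFLF minus LF, from 4 to 20 for the HF effect and from 5 to 17 for the HFLF effect. Without eWAT LF 4 no member was called for either effect.

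The differences that changed sign had not passed the test with all libraries. For eWAT LF minus liver LF, miR-183-5p was 0.15 under DESeq2's size factors and 0.15 with DESeq2. Under library totals miR-182-5p was 0.75, miR-183-5p 1.11 and miR-183-3p 0.17. There miR-96-5p was −1.605 with limma's voom, −3.34 without eWAT LF 1 and LF 4 and −3.605 without all 4 libraries, and miR-183-3p was 0.038 without liver LF 4 and HF 6. Leaving out single libraries gave −2.20 to 0.17 for miR-183-5p, −3.49 to 0.062 for miR-183-3p and −2.31 to 1.19 for miR-96-5p. For liver HF minus LF, miR-182-5p was 0.092 under library totals, 0.089 with limma's voom, 0.054 with no filter, 0.20 without liver LF 4 and HF 6 and −0.16 to 0.17 without single libraries. miR-183-5p was −0.47 with limma's voom and −0.14 to 0.37 without single libraries, and miR-183-3p was 0.00049 without LF 4 and HF 6. For liver HFLF minus LF, miR-183-3p was 0.076 with limma's voom, 0.35 without LF 4 and HF 6 and −1.54 to 0.35 without single libraries, and miR-182-5p −0.19 to 0.29. For liver HFLF minus HF, miR-96-5p was 0.090 under library totals, 1.045 with limma's voom and −0.46 to 0.35 without single libraries, and miR-182-5p −0.18 to 0.24. In eWAT HFLF minus HF, miR-96-5p was 0.26 with limma's voom and miR-183-5p −0.55 to 0.12 without single libraries. For the HF effect miR-183-3p was 0.86 with limma's voom and −4.23 to 0.22 without single libraries. Without eWAT LF 1 and LF 4 it was at 0 in every eWAT LF library left, so the fits return numbers whose size and sign are no estimate, 5.59 for the HF effect and 2.98 for the HFLF effect, or 4.14 and 1.79 without all 4 libraries.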
